A study of Homo sapiens with 16 samples.

Results

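H3K9ac, the acetylation of lysine 9 of histone H3, was compared between the cPt-resistant ovarian cancer line A2780cis and its cPt-sensitive parent A2780 through the deposited list of ChIP-seq peaks of each line. All autosomal peaks of both lists were taken, and peaks of both lines with 1 bp or more in common were joined to regions. The 22438 peaks of A2780 and 15058 peaks of A2780cis, 37496 of the 175365 autosomal peaks in the 8 lists of the series, gave 27056 regions. The series also holds H3K27ac lists of the same lines, of CAOV4 and CAOV4cis, and of A2780 cells after 1 week of MBD3 knockdown with the hairpins shMBD3.26 or shMBD3.232. By the paper, CAOV4 is a high-grade serous ovarian cancer line. CAOV4cis is its cPt-resistant derivative, made with rising doses of cPt and kept in medium with cPt. It was exposed to cPt for a shorter time than A2780cis. A2780 cells come from an endometrioid ovarian adenocarcinoma and carry the treatment label none. A2780cis cells derive from them, are kept in medium with cPt and carry the label "Cisplatin treated", so that selection for resistance and the drug itself cannot be told apart. Each line was profiled with 1 H3K9ac library, so that no difference below has a replicate check and none was tested between the lines. Intervals are 95% Wilson intervals, or order statistics for a median, and cover counting error over peaks or regions only.

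Cisplatin crosslinks DNA, and epithelial ovarian cancers that first respond to it often become resistant. Acetylation of H3K9 is written by the acetyltransferases KAT2A and KAT2B in the SAGA and ATAC complexes, is removed by deacetylases and sirtuins, and is read by YEATS and bromodomain proteins. It marks promoters of active genes and, together with H3K27ac, active enhancers. Clusters of enhancers can be acetylated over long stretches, and such domains often lie near genes that define a cell's identity.

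The lists give where a peak begins and ends, on a grid of 200 bp, but not its height, so that only covered length can be compared, and a stretch outside the listed peaks is not known to be free of the mark. Neither list had a peak on chromosomes 20, 21 or 22. On chromosome 1 the last peak ended at position 197172800 in A2780 and 197172400 in A2780cis, short of the end of the chromosome. The same held for chromosomes 2 to 12. Positions are those of the lists, for which the labels name the build hg19 (GRCh37). Genes are named as lying near a domain from the general map of that build. Each name was checked only for lying on the same chromosome and within 3 Mb of its RefSeq record, which is of another build (GRCh38). Overlap with a start site, exon or intron was thus not determined. Within 3 Mb lay 83 coding genes at the lost domain near CCND2 and 6 at that near MIR17HG. A named gene thus need not be the nearest.

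Promoter sequences of 4 genes near domains described below are shown as examples of the sequence upstream of genes named here. They are the 250 bases before the annotated start in RefSeq (GRCh38.p14, another build than that of the lists). They are RGS1 (chr1:192575523-192575772, plus strand) and EMP1 (chr12:13196476-13196725, plus strand), near domains lost in A2780cis, and KCNT2 (chr1:196608441-196608690, minus strand) and LSAMP (chr3:116445488-116445737, minus strand), near domains gained. Of the 53 gene names given to loci, 41 had a promoter in the table. Capitals mark the AP-1 motif TGACTCA, or TGAGTCA on the other strand, and the GC box GGGCGG, or CCGCCC. Both strands were searched.
RGS1: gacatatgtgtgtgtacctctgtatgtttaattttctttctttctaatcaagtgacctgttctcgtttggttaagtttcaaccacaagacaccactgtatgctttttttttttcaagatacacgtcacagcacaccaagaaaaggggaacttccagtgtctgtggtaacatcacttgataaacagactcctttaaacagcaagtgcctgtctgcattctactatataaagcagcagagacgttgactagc
EMP1: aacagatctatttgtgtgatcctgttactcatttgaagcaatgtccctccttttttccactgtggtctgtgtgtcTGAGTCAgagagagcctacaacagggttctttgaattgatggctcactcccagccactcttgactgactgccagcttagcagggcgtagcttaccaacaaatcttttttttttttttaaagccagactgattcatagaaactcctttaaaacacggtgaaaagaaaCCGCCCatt
KCNT2: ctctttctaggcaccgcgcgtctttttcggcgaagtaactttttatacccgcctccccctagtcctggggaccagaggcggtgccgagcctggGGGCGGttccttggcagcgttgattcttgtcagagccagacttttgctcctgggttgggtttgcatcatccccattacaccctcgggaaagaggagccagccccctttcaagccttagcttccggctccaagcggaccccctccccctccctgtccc
LSAMP: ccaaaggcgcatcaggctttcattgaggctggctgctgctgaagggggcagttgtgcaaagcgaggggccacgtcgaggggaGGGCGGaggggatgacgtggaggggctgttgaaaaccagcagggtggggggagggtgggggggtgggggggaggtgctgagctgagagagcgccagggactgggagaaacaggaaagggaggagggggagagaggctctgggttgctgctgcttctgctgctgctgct
The promoter of RGS1 held neither motif, and those of KCNT2 and LSAMP held 1 GC box each. The promoter of EMP1 held 1 AP-1 motif and 1 GC box. Over all 35116 promoters of the same length, 4.20% held the AP-1 motif and 42.6% held the GC box. None of the 4 held the TEAD motif GGAATG on either strand, which 11.9% of promoters did. None held the E-box motif CACGTG, which 6.34% did. GC content was 39.2% for RGS1, 42.4% for EMP1, 60.4% for KCNT2 and 65.2% for LSAMP, beside a median of 58% over all promoters. Promoters of the other named genes were not examined, so no contrast between lost and gained domains can be drawn. These letters describe the sequences only, and whether a listed peak covers the promoters was not determined.

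A2780cis had fewer and wider H3K9ac peaks than A2780 and almost the same covered length. Covered length came to 54.5 Mb for A2780 and to 53.6 Mb for A2780cis. Their median width was 1600 bp in A2780 (quartiles 600 and 3200 bp) and 2600 bp in A2780cis (1200 and 4400 bp). The difference lay at both ends of the range of widths. Peaks of 400 bp or less made up 22.4% of the A2780 list (5028 peaks) and 11.6% of the A2780cis list (1754 peaks). Peaks of 5 kb or more numbered 2606 in A2780 and 3040 in A2780cis, where they held 39.5% and 52.0% of the covered length, respectively. The widest peak was 69.4 kb in A2780 and 119.8 kb in A2780cis. H3K9ac in the resistant line was thus listed in longer unbroken stretches. H3K27ac peaks also numbered 27932 in A2780 and 20245 in A2780cis, with median widths of 2200 and 2800 bp. A shift to fewer and wider peaks was thus not particular to H3K9ac. A2780 cells with shMBD3.232 had 18936 H3K27ac peaks of median width 2600 bp, and those with shMBD3.26 had 23270 of 2000 bp.

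How often a peak had a partner in the other line depended on its width. Of all A2780 peaks, 44.5% (43.8% to 45.1%) overlapped an A2780cis peak, and of all A2780cis peaks 61.6% (60.8% to 62.3%) overlapped an A2780 peak. Among peaks of 400 bp or less these shares were 8.73% and 13.4%. Among peaks over 5 and up to 10 kb they reached 81.4% and 86.8%. They were lower again for peaks over 10 kb, at 74.2% (69.9% to 78.1%) and 81.4% (78.2% to 84.3%). A larger share of the widest peaks was therefore without a partner than in the class of widths below them.

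**Figure D1:**
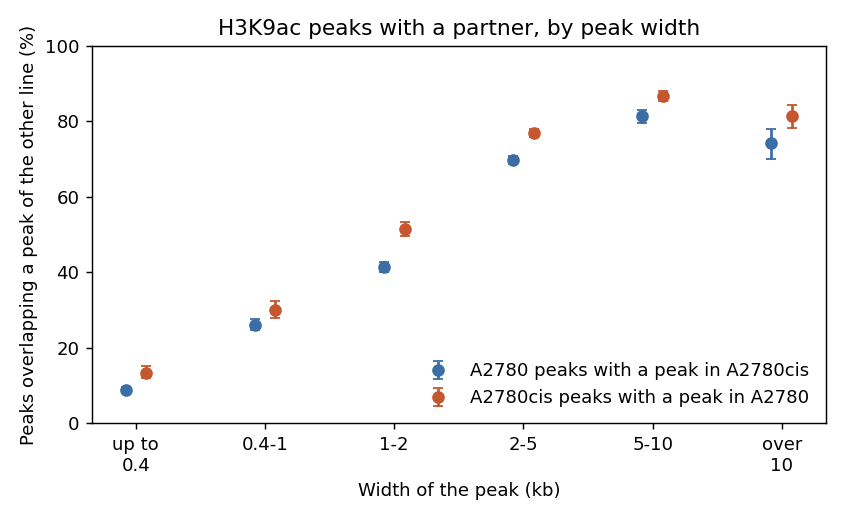
Share of H3K9ac peaks (in %) that overlap a peak of the other line, by width of the peak in kb, for A2780 (blue) and A2780cis (orange), with 95% Wilson intervals. The shares rise from 8.73% and 13.4% for peaks up to 0.4 kb to 81.4% and 86.8% for peaks of 5 to 10 kb, and are lower for peaks over 10 kb.

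Regions found in both lines were a minority by number and the majority by length. Of the 27056 merged regions, 8813 were common (32.6%), 5788 were listed in A2780cis only (21.4%) and 12455 in A2780 only (46%). The median width was 4400 bp for common, 1200 bp for A2780cis-only and 800 bp for A2780-only regions. Common regions held 66.8% of the covered length of A2780 and 77.9% of that of A2780cis. With the same number of widest peaks taken from each list, there were 6483 A2780cis-only and 6113 A2780-only regions, so that the excess of A2780-only regions turned around when the lists were matched in number.

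Within common regions the resistant line was covered more often, by a small margin. The median ratio of covered length, A2780cis over A2780, was 1.12 (1.10 to 1.14), with quartiles of 0.778 and 1.67. The covered length was greater in A2780cis in 4981 regions (56.5%), smaller in 3425 (38.9%) and equal in 407. At least 2-fold more was covered in A2780cis in 1600 regions, or 18.2%, and at least 2-fold more in A2780 in 867, or 9.84%. In the 7628 regions with a single peak of each line the median ratio was 1.10 (1.09 to 1.12). The ratio was 1.40 (1.35 to 1.46) in the 810 regions with more A2780 than A2780cis peaks, where several peaks of A2780 faced fewer and longer ones. It was 0.793 (0.763 to 0.851) in the 287 regions with more A2780cis peaks. Several peaks of 1 line are joined to a region only where a peak of the other line spans the gap between them. The grouping by peak number thus favors a longer covered length in the line with fewer peaks. Among the 438 common regions with a mean covered length over 10 kb, 66.9% (62.4% to 71.1%) were covered more in A2780cis, against 54.7% (52.3% to 57.0%) of the 1694 regions up to 2 kb.

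**Figure D2:**
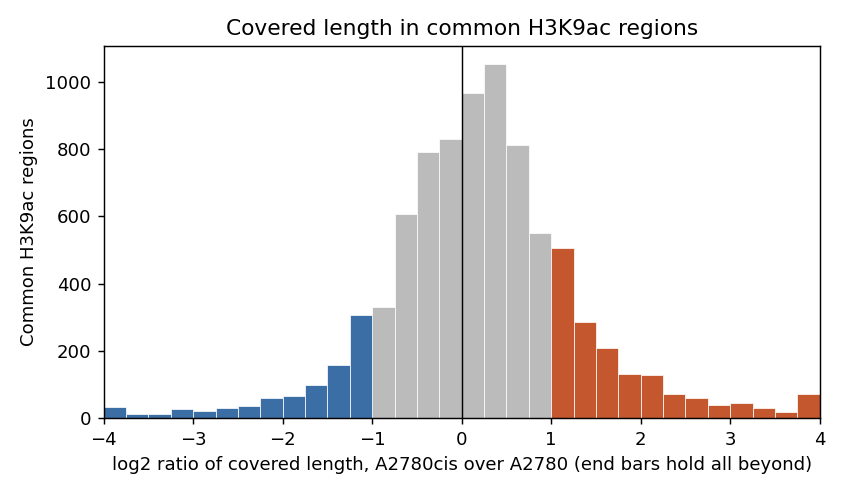
Histogram of the log2 ratio of H3K9ac covered length, A2780cis over A2780, in common regions, with orange bars at least 2-fold toward A2780cis (1600 regions) and blue bars at least 2-fold toward A2780 (867 regions). The 407 regions of equal length are not drawn, and the bulk lies slightly to the right of 0.

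H3K27ac, measured in other libraries, moved the same way more often than the opposite way in the regions that changed. H3K27ac covered more of the region in A2780cis in 62.4% (60.0% to 64.7%) of the 1600 common regions with at least 2-fold more H3K9ac there, and more in A2780 in 14.9%. In the 867 regions with at least 2-fold more H3K9ac in A2780, H3K27ac covered more in A2780 in 51.3% (48.0% to 54.6%) and more in A2780cis in 26.3%. In the 6346 regions in between, the shares were 41.0% toward A2780cis and 28.2% toward A2780. The remaining regions had equal H3K27ac length in both lines.

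Broad H3K9ac regions of 5 kb or more that were listed in 1 line only were nearly all marked by H3K27ac in that line as well. There were 438 such regions in A2780cis only and 518 in A2780 only, beside 3776 common regions of that width. Of the A2780cis-only regions, 98.9% (97.4% to 99.5%) had an H3K27ac peak in A2780cis and 44.7% (40.2% to 49.4%) had one in A2780. Of the A2780-only regions, 98.1% (96.5% to 98.9%) had an H3K27ac peak in A2780 and 35.5% (31.5% to 39.7%) had one in A2780cis. In length, H3K27ac peaks covered 93.6% of the A2780cis-only regions in A2780cis and 17.4% in A2780, and 89.8% of the A2780-only regions in A2780 and 14.8% in A2780cis. Over regions of any width, an H3K27ac peak of the same line lay at 61.0% of A2780cis-only and 43.5% of A2780-only regions, and the other line had one at 43.9% and 23.5%, respectively. Common regions had an H3K27ac peak in 96.9% of cases in A2780 and 96.4% in A2780cis.

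Most of these broad regions lay far from any peak of the other line. The median distance to the nearest peak of the other line was 41.2 kb for the A2780cis-only and 60.8 kb for the A2780-only regions, and 18.9% and 14.5% had one within 5 kb. At a width of 10 kb or more, there were 120 A2780cis-only and 116 A2780-only regions. All 120 had H3K27ac in A2780cis and 30.8% had it in A2780. All 116 had H3K27ac in A2780 and 21.6% had it in A2780cis.

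To follow long stretches of the mark, peaks of both lines were stitched at the default distance of the ROSE program, which the study used. This gave 14106 domains, which were ranked by the difference in covered length. In 111 domains A2780cis had at least 20 kb more, and 39 of these had no A2780 peak. In 100 domains A2780 had at least 20 kb more, and 44 of these had no A2780cis peak. H3K27ac covered length differed in the same direction in 110 of the 111 and in 100 of the 100. The share over all domains was not computed. The ranking depended on the stitching distance. At 5 kb, 6 of the 10 largest gains and 4 of the 10 largest losses were still among the 10 largest.

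The greatest gain lay near PDE4D, which encodes a cAMP phosphodiesterase, at chr5:58374601-58689800. There H3K9ac covered 133.8 kb in A2780, in 25 peaks, and 282.4 kb in A2780cis, in 13 peaks, and H3K27ac went from 218 to 305.6 kb. Within this domain a single A2780cis peak of 105.2 kb stood over 18.2 kb of A2780 peaks, which made it the common region with the largest gain. The A2780 peaks there were scattered and the A2780cis peaks were joined.

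Near RAD51B, whose product acts in homologous recombination, H3K9ac covered 0.6 kb in A2780 and 132.2 kb in A2780cis (chr14:68399401-68592200). A domain near KCNT2, a sodium-activated potassium channel gene, went from 42.4 to 172.4 kb (chr1:196273601-196483600). Near HACE1, an E3 ubiquitin ligase gene, the covered length went from 4 to 119.6 kb (chr6:104655001-104787400), and the 1 Mb bin from 104 to 105 Mb of chromosome 6 had the greatest gain of all bins, from 48 to 261.6 kb. The next bin, from 105 to 106 Mb, went the other way, from 187.8 to 96.6 kb. It held a region of 27.6 kb listed in A2780 only (chr6:105128201-105155800), which also lies near HACE1. Changes near this gene thus went both ways. Near WDR72 and UNC13C, a gene of synaptic vesicle priming, the covered length went from 12.2 to 125.4 kb (chr15:54003801-54168000). All of these domains carried some H3K9ac in A2780.

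In the other 5 of the 10 largest gains A2780 had no H3K9ac peak, and no H3K27ac peak either. H3K9ac in A2780cis covered 120 kb near GNAI1, an inhibitory G protein subunit gene, and CD36, a fatty acid receptor gene (chr7:79930401-80103800). It covered 100.2 kb near LRRC4C, which encodes a netrin-G ligand (chr11:41370601-41484400), and 99.4 kb near LRRC7, a gene of postsynaptic densities (chr1:70363201-70512800). It covered 98.2 kb near NSUN3, a mitochondrial tRNA methyltransferase gene (chr3:94053601-94184800), and 97 kb near LSAMP, a neuronal adhesion gene (chr3:117240801-117370600). In A2780cis, H3K27ac peaks covered between 111.6 and 163 kb of these 5 domains. In CAOV4 and CAOV4cis they covered at most 1.2 kb of any of them, and neither MBD3 hairpin brought an H3K27ac peak to them in A2780.

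The widest single region listed in A2780cis only, 57.8 kb long, lay near CBLN2, a cerebellin gene (chr18:70201201-70259000), and another of the same width lay in the domain near HACE1. A region of 37.2 kb lay near CADM2, which encodes a cell adhesion molecule (chr3:85498401-85535600). Among common regions, A2780cis peaks faced 4 A2780 peaks of 5 kb in all with 1 of 65.6 kb near TYRP1, a gene of melanin synthesis (chr9:12659601-12725200). Near DNM3, a dynamin gene, 15 A2780 peaks of 65.8 kb in all lay under 1 A2780cis peak of 119.8 kb (chr1:172285801-172405600). A domain near the metalloproteinase genes MMP10, MMP1, MMP3 and MMP12, named after its values were seen, stood just below the 10 largest gains, with 47.8 kb in A2780 and 139.2 kb in A2780cis (chr11:102600801-102786400).

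The greatest loss lay near CCND2, which encodes the cell cycle regulator cyclin D2, at chr12:4099801-4432800. H3K9ac covered 189.8 kb there in A2780, in 38 peaks, and 15.8 kb in A2780cis, in 4 peaks, while H3K27ac went from 231 to 50.4 kb. The next lay near MIR17HG, the host gene of the miR-17-92 microRNAs, and GPC5, a glypican gene (chr13:91696401-91905600). There 142.2 kb in A2780 faced no peak of either mark in A2780cis. Loss near CCND2 was thus partial and loss on chromosome 13 was complete in the lists.

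Near CXXC4, which encodes an inhibitor of Wnt signaling, H3K9ac went from 118.2 to 17.6 kb (chr4:105309401-105471200). Near SPRY1, an inhibitor of FGF and other receptor tyrosine kinase signaling, it went from 121.8 to 29.8 kb (chr4:124656001-124882000). Near RGS1 and RGS13, which encode GTPase activators of G protein subunits, 91.4 kb in A2780 faced none in A2780cis (chr1:192511001-192611200). This domain held the widest A2780-only region, of 59.4 kb. Near RGS3, a further gene of that family, the covered length went from 79.6 to 2.8 kb (chr9:116206401-116331800).

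The remaining 4 of the 10 largest losses were of similar size. Near PTBP2, a splicing regulator gene, H3K9ac covered 98.6 kb in A2780 and none in A2780cis (chr1:96393201-96564000). Near NFIB, a transcription factor gene, it went from 104.6 to 6 kb (chr9:14418201-14564000), and near RSRC1, a gene of pre-mRNA splicing, from 80.6 to 0.6 kb (chr3:158118801-158258000). Near CPA1, a carboxypeptidase gene, CEP41 and the imprinted gene MEST it went from 83.8 to 1.2 kb (chr7:129990001-130132200). In all 10 lost domains H3K27ac was also lower in A2780cis, and both MBD3 knockdown lists of A2780 kept between 75 and 183.6 kb of H3K27ac there.

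Among regions listed in A2780 only, 39.4 kb lay near PEX14, a gene of peroxisomal protein import (chr1:10563401-10602800), and 38.2 kb near TMEM30B, a flippase subunit gene (chr14:61717201-61755400). A further 31 kb lay near PCDH15, a protocadherin gene (chr10:55357601-55388600), and 28.2 kb near MIR148A (chr7:25751801-25780000). Of common regions, the greatest loss lay near CACNA2D1, a calcium channel subunit gene, where 1 peak of 54.6 kb in A2780 faced 1 of 15.2 kb in A2780cis (chr7:81551401-81606000). Near FERMT2, which encodes the integrin activator kindlin-2, a peak of 36.4 kb faced 1.4 kb (chr14:53294201-53330600). Near EMP1, an epithelial membrane protein gene, 28.6 kb faced 0.4 kb (chr12:13263601-13292200). Near NR2F1, a nuclear receptor gene, 40.6 kb faced 18.4 kb (chr5:91967601-92008200). Losses in common regions were smaller than the gains, which reached 87 kb near PDE4D against 39.4 kb here.

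**Figure D3:**
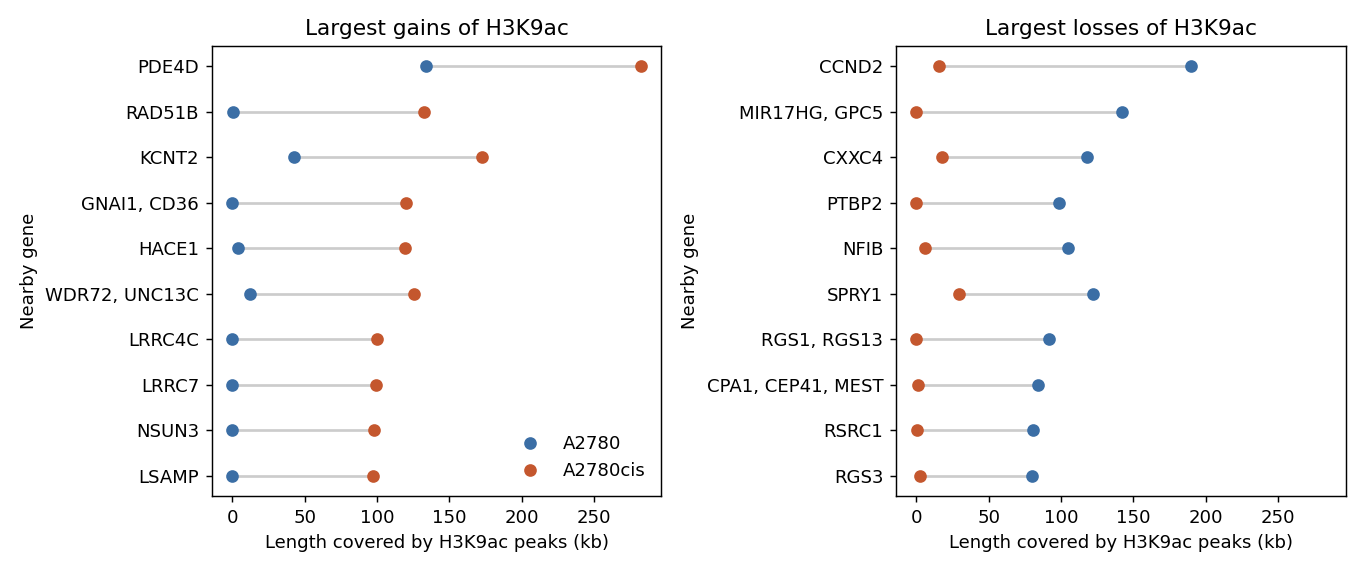
Length covered by H3K9ac peaks (kb) in A2780 (blue) and A2780cis (orange) in the 10 stitched domains with the largest gain (left) and the largest loss (right), labelled by nearby genes. A2780 is at 0 in 5 of the gained domains, and A2780cis is at 0 in 3 of the lost ones.

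The windows of JAK1 and FGF10, drawn by the study, also had more H3K9ac in A2780cis. JAK1 encodes a kinase of cytokine receptors, and its window had no H3K9ac peak in A2780 and 5 peaks in A2780cis that covered 25.6%. FGF10 encodes a ligand of FGF receptors, and its window went from no peak to 5 peaks that covered 9.39%. H3K27ac covered 62.2% of the FGF10 window and 40.5% of the JAK1 window in A2780cis, so that H3K9ac covered less of both. The study also drew windows as examples of its common and differential regions, so these are no sample of all regions. In the window of CTNNA3, an alpha catenin gene, H3K9ac went from 0% to 75.9%, and in that of TBC1D5, a gene of endosomal transport, from 0% to 21.4%. In the window of ZNF841, a zinc finger gene, 1 peak of 0.8 kb covered 3.60% in A2780, and none was listed in A2780cis. In that of SDC2, a syndecan gene, H3K9ac went from 29.8% to 0%.

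Chromosome 13 stood apart from all other autosomes. H3K9ac covered 1.36 Mb of it in A2780, in 523 peaks, and 0.402 Mb in A2780cis, in 102 peaks, a ratio of 0.296. On the other 18 autosomes the ratio ran from 0.792 on chromosome 4 to 1.31 on chromosome 8, and their joint ratio was 1.00, against 0.982 with chromosome 13. H3K27ac on chromosome 13 had a ratio of 0.537, against 0.813 to 1.06 elsewhere. In the CAOV4 pair, the H3K27ac ratio of chromosome 13, CAOV4cis over CAOV4, was 1.00. A2780cis had fewer peaks than A2780 on every autosome, with ratios of peak number from 0.548 to 0.857 apart from chromosome 13, where it was 0.195.

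Taken as a whole, this chromosome had H3K9ac reduced further than H3K27ac. Along it the change was not uniform. From 80 to 90 Mb the ratios of H3K9ac and H3K27ac were alike, at 0.604 and 0.605. From 60 to 70 Mb H3K9ac rose from 27.8 to 63.2 kb, with H3K27ac at 96.8 and 102.8 kb. In the other 10 Mb segments with H3K9ac, the ratio was lower for H3K9ac than for H3K27ac. The H3K9ac length per H3K27ac length went from 59.1% in A2780 to 32.6% in A2780cis on chromosome 13, and from 56.3% to 58.9% on the other autosomes. Among 239 regions of chromosome 13 with an H3K27ac peak in both lines, 74.5% (68.6% to 79.6%) also had H3K9ac in the A2780 list and 30.5% (25.1% to 36.7%) in the A2780cis list. H3K9ac was listed in A2780 only in 115 of them and in A2780cis only in 10. H3K27ac itself was shorter in A2780cis in these regions, with a median ratio of 0.812, against 1.09 on the other autosomes. Over the 13543 such regions of the other autosomes the shares were 69.6% and 70.2%, with differences per chromosome between -5.06 percentage points on chromosome 1 and 7.58 on chromosome 8. In the 70 common H3K9ac regions of chromosome 13 the median ratio of covered length was 0.760 (0.600 to 0.945), and the covered length was smaller in A2780cis in 44 of them. Of the A2780 peaks over 2 kb, 26.6% had a partner in A2780cis on chromosome 13 and 73.5% on the other autosomes.

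**Figure D4:**
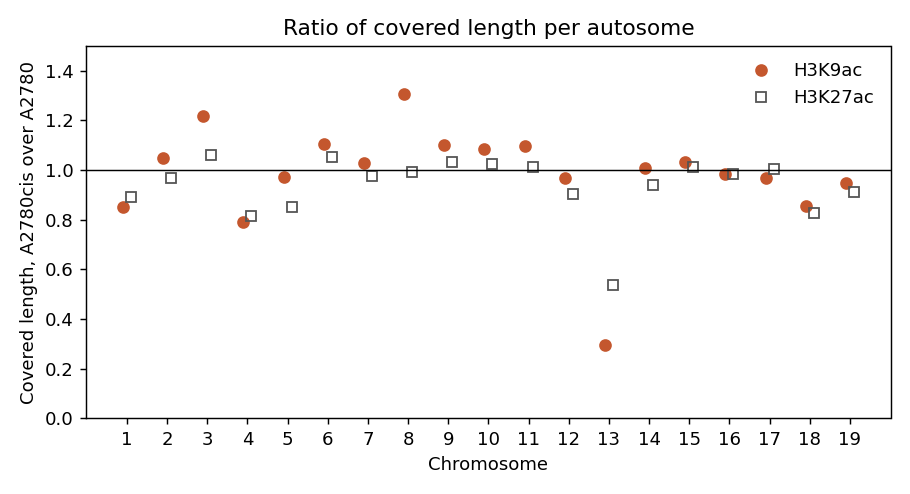
Ratio of covered length, A2780cis over A2780, for each autosome with listed peaks, for H3K9ac (filled circles) and H3K27ac (open squares). Chromosome 13 is lowest for both marks, at 0.296 and 0.537, and the H3K9ac ratio of the other autosomes lies between 0.792 and 1.31.

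Parts of chromosome 1 between 90 and 120 Mb showed the same pattern over a shorter distance. From 90 to 100 Mb, H3K9ac covered 224.2 kb in A2780 and 17.6 kb in A2780cis, and from 110 to 120 Mb it covered 202.6 and 36.8 kb. Of the 27 regions with H3K27ac in both lines between 90 and 100 Mb, 77.8% overlapped H3K9ac in A2780 and 22.2% in A2780cis. From 110 to 120 Mb, with 58 such regions, the shares were 70.7% and 25.9%. From 100 to 110 Mb they were 82.4% and 50% of 34 regions, with nearly equal covered length of 190 and 179.4 kb. The covered length of H3K27ac was lower in A2780cis too, at 394.2 and 77 kb from 90 to 100 Mb and at 328.2 and 164 kb from 110 to 120 Mb. From 100 to 110 Mb it was higher in A2780cis, at 433.4 and 475 kb. H3K9ac in bins of 1 Mb went both ways there. It rose from 74.6 to 123.6 kb in the bin starting at 102 Mb and fell from 35 to 4.8 kb in that starting at 100 Mb. Among the segments with at least 20 such regions, the shares moved most the other way on chromosome 3 from 80 to 90 Mb, where 39.1% of 23 regions overlapped H3K9ac in A2780 and 73.9% in A2780cis.

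In steps of 10 Mb, 171 segments had at least 200 kb of H3K9ac in both lines together, with a median ratio of 0.990. In 7 of them A2780cis had at least 2-fold less than A2780, and in 10 it had at least 2-fold more. The lowest were chromosome 13 from 90 to 100 Mb (231 and 8.6 kb) and from 30 to 40 Mb (242.2 and 18.4 kb), followed by chromosome 1 from 90 to 100 Mb. Chromosome 18 from 30 to 40 Mb went from 232.2 to 35.4 kb and chromosome 11 from 20 to 30 Mb from 183 to 30 kb. The highest was chromosome 3 from 80 to 90 Mb, which went from 38.4 to 268.2 kb. The segments from 110 to 120 Mb (62.8 and 206 kb) and from 100 to 110 Mb (79.6 and 260.6 kb) of this chromosome came next, and that from 90 to 100 Mb went from 134.2 to 251.2 kb. From 80 to 90 Mb and from 100 to 110 Mb of this chromosome, H3K27ac in A2780 was already 315.8 and 357.2 kb, and it was 579.8 and 409 kb in A2780cis. From 110 to 120 Mb it went from 108.4 to 393.8 kb.

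At 1 Mb, 883 bins had at least 20 kb of H3K9ac in the line with more. In 88 of them, or 9.97%, A2780cis had at least 2-fold more, and in 117, or 13.3%, A2780 had. With a minimum of 50 kb the numbers were 55 and 52, so that the excess toward A2780 turned around. At the minimum of 20 kb, chromosome 13 had 18 of 21 bins toward A2780 and 2 toward A2780cis. Without this chromosome, 99 of 862 bins were toward A2780 and 86 toward A2780cis. Chromosome 1 had 23 of 98 bins toward A2780 and 8 toward A2780cis. Chromosome 8 had 10 of 38 and chromosome 6 had 9 of 36 bins toward A2780cis. Of the 88 bins, 87 also had more H3K27ac in A2780cis, and of the 117 bins 116 had more H3K27ac in A2780. In the 678 bins below 2-fold, 310 had more H3K27ac in A2780cis and 365 had more in A2780. Across the 883 bins, the log2 ratios of the marks (1 kb added to each length) correlated with a Pearson r of 0.92 and a Spearman rho of 0.78. The bins share their 4 libraries and the way the lists were made, and neighbors are not independent. Over all bins, gains summed to 11.5 Mb and losses to 12.4 Mb. The bins with at least 2-fold differences held 55.5% of the gain and 45.8% of the loss. The rest included bins with long coverage in both lines, such as 124 to 125 Mb of chromosome 4, near SPRY1, which went from 353.8 to 197.8 kb.

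**Figure D5:**
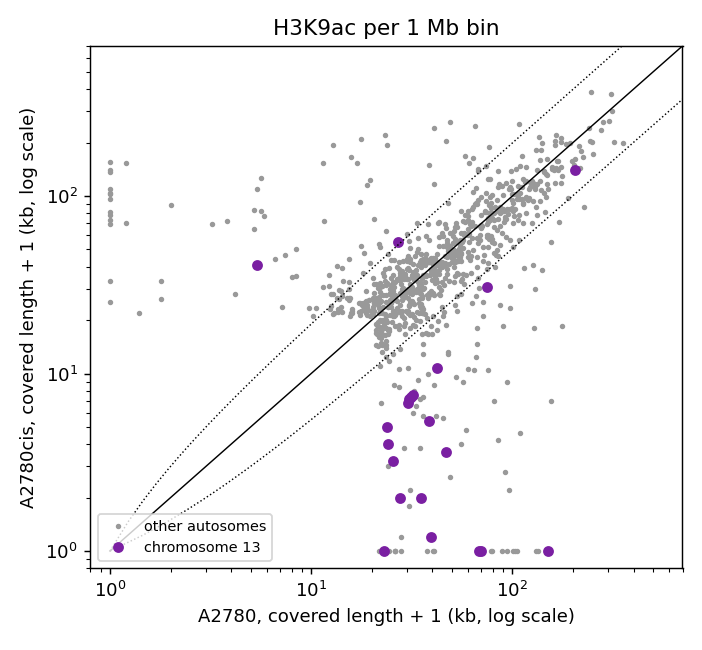
H3K9ac covered length per 1 Mb bin in A2780 (horizontal) and A2780cis (vertical), each with 1 kb added and on a log scale, for 883 bins. The solid line marks equal length and the dotted lines 2-fold differences, and 18 of the 21 bins of chromosome 13 (purple) lie on or below the lower dotted line.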

How the data were processed

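The 2 H3K9ac lists are the members, and the 6 H3K27ac lists were used for comparison. By their methods, the authors added D. melanogaster chromatin to mononucleosomes, used Bowtie2 for alignment, applied a quantile normalization of their own and called peaks with MACS2 (versions not given in the sources used here). They deposited 1 list for each of the 8 ChIP samples, called per sample, with the position of each peak. The deposited score is 0 throughout and was left out. Neither read depth nor the precision of any peak is known. The 8 input libraries were not analysed here. All peaks of chromosomes 1 to 19 were used, which are all the autosomes with peaks. Overlap, stitching and binning ran in Python 3.11.15 (pandas 2.3.3, numpy 2.4.6, SciPy 1.17.1, matplotlib 3.10.9). The code for merging and covered length was tested on the A2780 H3K9ac list with known changes put into copies of it. All 200 peaks removed per copy and all 200 widened peaks were recovered. Other steps were not tested this way. The loci named are, per direction, the 10 stitched domains, 10 regions listed in 1 line only, 5 common regions and 5 bins with the largest differences, of which some were left out, and windows drawn by the study. The members and lists were chosen with earlier results of these data known. A genome and annotation of the build of the lists were not used here, so start sites, the gene lists and motifs under peaks were not analysed. The alternatives were another overlap rule, joining or stitching distance, peak selection, bin size, minimum and width limit, and leaving out chromosome 13.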

Additional observations from a re-analysis of the deposited data

Results flagged for a closer look

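Chromosome X was outside the comparison of autosomes and carried H3K9ac in both lists, with 330 peaks in A2780 and 294 in A2780cis. Covered length was 0.661 Mb for A2780 and 0.943 Mb for A2780cis, a ratio of 1.43, and the median ratio in its 105 common regions was 1.36. There were 187 A2780cis-only and 208 A2780-only regions besides.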

How the results depend on the processing

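Each of 21 results was recomputed under the alternatives, which gave 100 values. Of these, 45 stayed within the interval of the value reported, or within 1.5 times a count, and 55 moved further. The ratio of chromosome 13 has no interval, and its alternatives were counted as moved. A change of direction was looked for only in the median ratio in common regions, where none was found. The cause of the moves was not tested. The share of A2780cis peaks with a partner was 59.6% with an overlap of 50% of the shorter peak, 65.3% and 75.7% with peaks joined within 1 and 5 kb, 56.9% with the same number of widest peaks, 63.3% with peaks over 2 kb and 82.0% for the wider 50% looked up in the full list. For A2780 peaks it was 42.8%, 48.4%, 60.9%, 59.4%, 63.5% and 68.4%, respectively, and 45.2% without chromosome 13, a setting chosen after seeing the data. With peaks over 2 kb, 5432 regions were common, 3278 A2780cis-only and 3360 A2780-only. Joining within 5 kb left 3246 A2780cis-only and 7459 A2780-only regions, and the wider 50% of each list left 1352 and 3547. The same number of widest peaks left 6113 A2780-only regions. The median ratio in common regions was 1.08 with joining within 5 kb, with the same number of widest peaks and with peaks over 2 kb, and 53.8%, 53.9% and 55.3% of regions were covered more in A2780cis, against 54.9% with 1 peak of each line. Of the broad regions of 1 line, 120 A2780cis-only and 116 A2780-only were 10 kb or more, 133 and 236 were among the widest 5% of each list, and 261 and 325 had no peak of the other line within 25 kb. Of the 10 largest gains 6, and of the 10 largest losses 4, were among the 10 largest with stitching at 5 kb, and 7 and 6 with 25 kb. The ratio of chromosome 13 was 0.195 by number of peaks and 0.312 with the same number of widest peaks, and it was the lowest of the autosomes each time. A ratio below 1 was found on 9 autosomes by covered length, on 19 by number of peaks and on 5 with the same number of widest peaks. A minimum of 50 kb left 55 bins toward A2780cis and 52 toward A2780, which turned their order around. H3K27ac shares for an overlap of 50% of the H3K9ac region and for regions over 2 kb were as follows. For A2780cis-only regions they were 56.5% and 91.2% in A2780cis and 34.8% and 59.8% in A2780. For A2780-only regions they were 38.1% and 84.0% in A2780 and 19.5% and 40.1% in A2780cis. For common regions they were 89.6% and 98.6% in A2780 and 91.7% and 98.0% in A2780cis. Alternatives for genes by start site were not run, since no annotation of the build was used. No paired analysis was possible because each line has 1 library.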

Other observations

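The broad H3K9ac regions were looked up in the H3K27ac lists of the other conditions. Of the 518 A2780-only regions of 5 kb or more, 94.8% (92.5% to 96.4%) had an H3K27ac peak in A2780 cells with shMBD3.26 and 90.3% (87.5% to 92.6%) in those with shMBD3.232. All 116 A2780-only regions of 10 kb or more had one with either hairpin. Of the 438 A2780cis-only regions of 5 kb or more, 37.7% (33.3% to 42.3%) had one after knockdown by shMBD3.26 and 32.4% (28.2% to 36.9%) after that by shMBD3.232, against 44.7% in untransduced A2780. The knockdown lists are smaller, at 76.5 and 78.9 Mb against 96.7 Mb in untransduced A2780, and the part of this in the lower shares was not tested. At common regions of 5 kb or more the shares were 98.3% and 97.0% with the hairpins, against 99.3%. In CAOV4 and CAOV4cis an H3K27ac peak lay at 25.1% of the A2780cis-only regions in both lines, and at 24.9% and 24.7% of the A2780-only regions. Common regions of 5 kb or more had one in 78.6% and 78.2% of cases. Among the 10 stitched domains with the largest gain, that near RAD51B was an exception. H3K27ac covered 75.4 kb of it in CAOV4 and 72.2 kb in CAOV4cis.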
